A study of Drosophila melanogaster with 4 samples.

Results

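HP4 regions in the distal euchromatin of 2 autosomal arms of Drosophila melanogaster, 2L and 3L, were taken from chromatin immunoprecipitation followed by sequencing (ChIP-seq) of wild-type Oregon-R embryos staged at 14 to 16 h. Distal means that the midpoint of a region lay at least 3 Mb from the centromere-proximal end of the arm sequence, a rule that uses position and no measured value. It left 20.0 Mb of 2L and 21.5 Mb of 3L, and 489 of the 4366 regions of the authors' combined list met it, 229 on 2L and 260 on 3L. The same rule gave 97 of 2703 regions in HP4 ChIP replicate 1, 49 on 2L and 48 on 3L, and 100 of 2674 in HP4 ChIP replicate 2, 45 on 2L and 55 on 3L.

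The series holds 2 libraries immunoprecipitated with the HP4 antibody Q4072 and 2 input libraries, made from genomic DNA of the same strain and stage and each labelled as the input of 1 ChIP library. Each ChIP library has a deposited list of enriched regions, and a combined list stands for the replicate set; all 3 carry 1 score per region and use FlyBase release 5 coordinates. The score is the authors' own value and its scale is not stated. Read depth is unknown from these lists. Separate embryo collections are not named for the replicates, and their spread may therefore be only technical. Whole embryos were used, so a region bound in few nuclei and a region bound weakly in many cannot be told apart. With 1 group of 2 ChIP libraries no test between samples was possible, and differences are set against the spread between the replicates (SD, n = 2) or against counting intervals.

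HP4 is a chromatin protein known as a partner of HP1, the protein that binds methylated histone H3 and is the hallmark of heterochromatin, the compact and repeat-rich chromatin around centromeres. Euchromatin, which makes up most of the chromosome arms, holds most genes and is open in most cells. HP1 is also known at telomeres and at scattered places within the arms, away from the centromeres. The starts of the 2L and 3L sequences are their telomeric ends, so the distal regions run from there towards the centromere.

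HP4 regions were sparse in the distal arms. In the replicate lists they covered 0.511% ± 0.00517 of distal 2L and 0.463% ± 0.0643 of distal 3L. Replicate 1 covered 0.507% of distal 2L and 0.418% of distal 3L, and replicate 2 covered 0.514% and 0.508% of the same lengths. The combined list covered 1.70% of distal 2L and 1.77% of distal 3L, and the upper 50% of the replicate lists by score 0.140% and 0.0487%. The ratio of 2L to 3L was thus 1.21 in replicate 1 and 1.01 in replicate 2, and its mean of 1.11 ± 0.143 lay within 1 SD of equal coverage. This depended on the list and the limits used, since the ratio was 0.963 in the combined list, 1.49 with the distal limit 2 Mb from the proximal end and 3.03 in the upper 50% of each list by score. The upper 50% was cut at the median score of each whole list, 1.25 in replicate 1 and 1.20 in replicate 2. The upper quartiles of the distal scores were lower, at 0.866 and 0.964, so the value of 3.03 rests on few distal regions. There were 2.35 ± 0.141 regions per Mb on distal 2L and 2.39 ± 0.230 per Mb on distal 3L.

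The proximal 3 Mb of the same arms was covered far more densely. Distal 2L had 0.0323 ± 5.85e-05 times the coverage of proximal 2L, which was 15.8% ± 0.189 covered. Distal 3L had 0.0158 ± 0.00179 times the coverage of proximal 3L, which was 29.3% ± 0.752 covered. Both gaps were much larger than the spread between replicates. The size of the ratio depended on the limits: on 2L it was 0.0769 in the combined list, 0.0583 with a limit of 5 Mb and 0.0170 in the upper 50% by score, and on 3L 0.0458, 0.0255 and 0.00355, with 0.0105 at a limit of 2 Mb. Distal parts of other arms, cut in the same way, were of the same order, with 0.736% ± 0.0752 of X and 0.365% ± 0.0634 of 3R in regions. Distal X was above both autosomal arms in each replicate (0.683% in replicate 1 and 0.789% in replicate 2), and distal 3R was below both (0.320% and 0.410%). These orders were not tested.

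Distal regions were also narrower and scored lower than proximal ones. Their median width was 1777 ± 147 bp in the replicate lists, against 3484 ± 231 bp in the proximal 3 Mb. Their median score was 0.743 ± 0.0114, against 1.03 ± 0.0309. The median widths of distal 2L, 1831 ± 223 bp, and distal 3L, 1728 ± 47.7 bp, differed by less than the replicate spread of 2L but more than that of 3L. The median score was 0.759 ± 0.0346 on distal 2L and 0.705 ± 0.0484 on distal 3L. This gap was about the size of the replicate spread on 3L and larger than that on 2L. The widest distal replicate regions were 7330 bp in replicate 1 and 7410 bp in replicate 2, at the same place on 2L.

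Most distal regions of the combined list were not found in either replicate list. Both replicates overlapped 53 of 489 by at least 1 bp, or 10.8% (Wilson 95% interval 8.38% to 13.9%, counting error only), against a background of 37.6% in the whole combined list. A single replicate overlapped 75, or 15.3%, against 17.9% in the whole list. Neither overlapped 361, or 73.8% (interval 69.8% to 77.5%), against 44.5% in the whole list. The share overlapped by both was 11.8% on distal 2L (27 regions) and 10.0% on distal 3L (26 regions), with intervals that overlap widely. In the proximal 3 Mb of these arms it was 50.3% (interval 44.9% to 55.7%), and in distal X and distal 3R it was 8.41% and 8.55%. Overlap by chance is likelier where regions are denser, and this was not computed here. The parts were not matched for region width, and shares by width are given below.

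**Figure D1:**
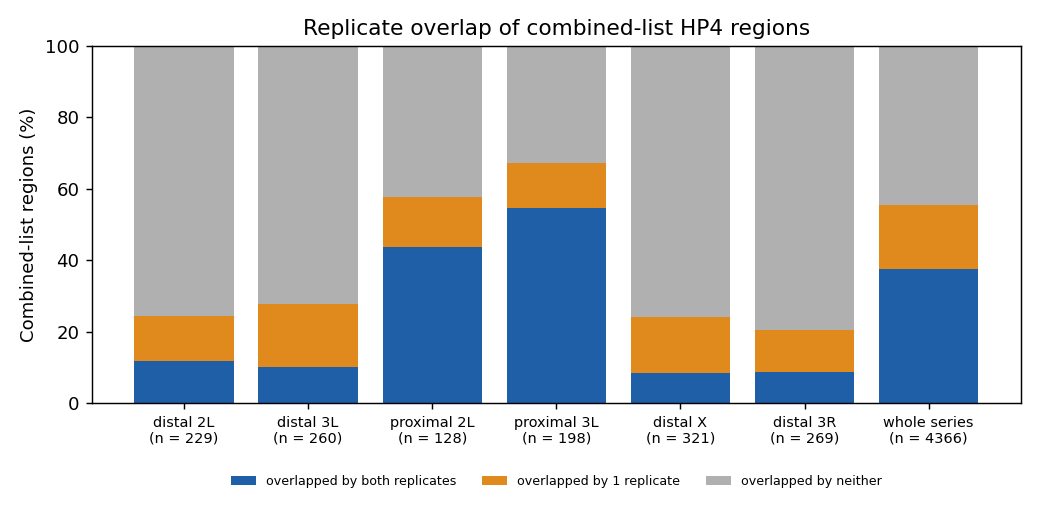
Share of combined-list HP4 regions (%, vertical axis) overlapped by both, by 1 or by neither ChIP replicate, for distal and proximal 2L and 3L, distal X, distal 3R and the whole list. The regions overlapped by both make up 11.8% of distal 2L and 10.0% of distal 3L, against 43.8% of proximal 2L and 54.5% of proximal 3L.

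Seen from the replicate lists, 54 of the 97 distal regions of replicate 1 overlapped a replicate 2 region, or 55.7% (interval 45.8% to 65.2%), against a background of 82.8% over all replicate 1 regions. Of the 100 distal regions of replicate 2, 53 overlapped a replicate 1 region, or 53.0% (43.3% to 62.5%), against a background of 79.7%. The replicates shared 121 kb of distal sequence, which was 63.2% of the distal bases of replicate 1 and 56.9% of those of replicate 2. By arm the Jaccard index, the shared bases divided by the bases in either replicate, was 0.486 on distal 2L and 0.372 on distal 3L, against 0.781 on proximal 2L and 0.800 on proximal 3L. Regions with no partner were narrower, with medians of 1422 bp in replicate 1 and 1529 bp in replicate 2, against 1961 bp in replicate 1 and 2089 bp in replicate 2 where a partner existed. The combined list left out some single-replicate calls, since it overlapped 85 of the 97 distal regions of replicate 1, or 87.6%, against 98.4% over all replicate 1 regions. It overlapped 96 of the 100 of replicate 2, or 96.0%, against 99% over all replicate 2 regions.

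No narrow distal region was overlapped by both replicates, while wider ones often were. None of the 288 members narrower than 1300 bp and none of the 120 members of 1300 to under 1900 bp was overlapped by both (Wilson upper limits of 1.32% and 3.10%). Of the 57 members of 1900 to under 2500 bp, 34 were, and of the 24 members of 2500 bp or more, 19 were. At 1900 to under 2500 bp the share was 59.6% (interval 46.7% to 71.4%). It was 32.4% (19.6% to 48.5%) in the proximal 3 Mb, 40.9% in distal X and 62.1% in distal 3R. At 2500 bp or more it was 79.2%, against 90.5%, 90.0% and 71.4% in the same parts. The lower share of distal than of proximal regions overlapped by both was thus not seen at 1900 to under 2500 bp. The narrowest member overlapped by both was 1925 bp wide, against 1534 bp in the whole combined list. These width limits were chosen after the values were seen, and that of 1900 bp lies just below this narrowest member. The absence of such members under 1900 bp follows from that choice, and the Wilson limits do not allow for it. The narrowest region of either replicate list was 1301 bp, so 288 members were narrower than any region the replicates could contribute, and 14 of those were overlapped by 1 replicate. Among the 201 members of at least that width, 53 were overlapped by both, or 26.4% (interval 20.8% to 32.9%). No member under 1900 bp was overlapped by both in the proximal 3 Mb, distal X or distal 3R either, so this limit was not particular to distal 2L and 3L.

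**Figure D2:**
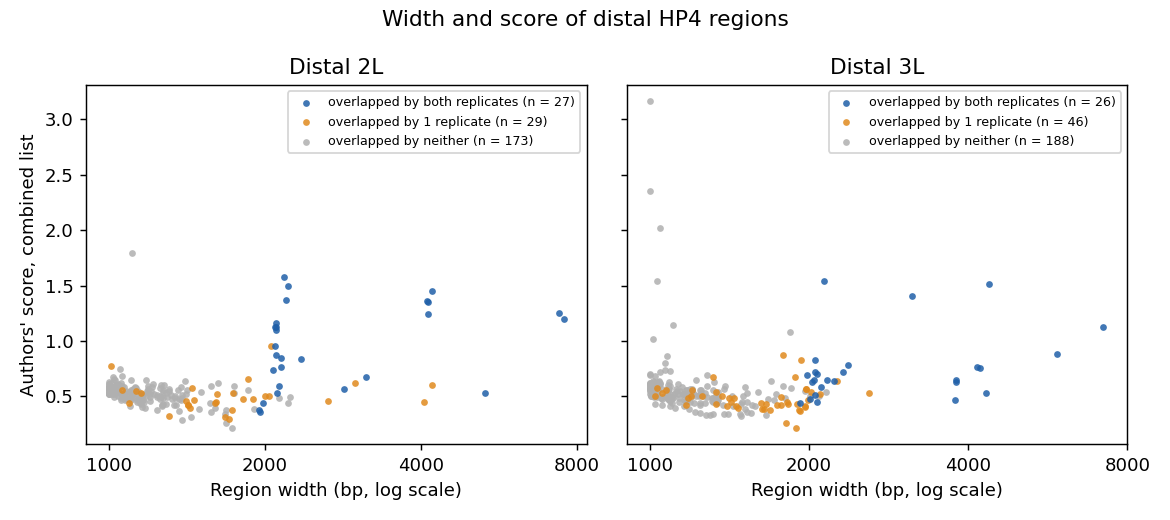
Width (bp, log scale, horizontal axis) and authors' score in the combined list (vertical axis) of the 229 distal 2L and 260 distal 3L regions, coloured by how many replicates overlap each. Regions overlapped by both start at 1925 bp and reach 7559 bp, and the highest scores on 3L, up to 3.16, belong to regions about 1 kb wide that neither replicate overlaps.

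Scores ranged widely within each overlap class. The median score was 0.753 for members overlapped by both replicates, 0.476 for those overlapped by 1 and 0.528 for those overlapped by neither. Only 35 of the 489 members reached the median score of the whole combined list, 0.823, and 23 of them were overlapped by both replicates. The matching share over all regions that reached it is not given here, so this count cannot be read as particular to distal members. In the whole combined list, too, regions overlapped by both scored higher, with a median of 1.21 against 0.575 for neither. At scores of 1 or more there were 25 members, 17 overlapped by both and 8 by neither. The shares over all regions of the combined list with such scores are not given here. On distal 2L 13 of the 14 members with such scores were overlapped by both, and on distal 3L 4 of 11. The difference between the arms rests on these few regions and was not tested. The 8 high-scoring members without replicate overlap were 1001 to 1839 bp wide.

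Most replicated regions of distal 2L and 3L fell in 2 width ranges. Of the 53, 34 were 1900 to under 2400 bp wide, 11 were 3700 to under 4400 bp wide, 3 lay between these ranges and 5 were wider. The counts were 18, 4, 2 and 3 on distal 2L and 16, 7, 1 and 2 on distal 3L. The median width was 2147 bp on distal 2L and 2200 bp on distal 3L, against 6472 bp on proximal 2L and 7548 bp on proximal 3L. The ranges were set after the widths were seen, and the first starts at 1900 bp, below which no member was overlapped by both. In distal 3R 18 of 23 replicated regions were 1900 to under 2500 bp wide, and in distal X 9 of 27.

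The replicates often put an edge of these regions within 100 bp of each other, and both edges in 17 of the 53. These 53 were chosen for overlap by both replicates. Edge distances in other parts of the genome are not given here, so this closeness cannot be read as particular to distal 2L and 3L. The median distance between the outer edges of replicates 1 and 2 was 91 bp over the 106 edges, and 55 edges lay within 100 bp of each other. Among the 34 narrower regions, those under 2400 bp, the median was 68 bp and no edge differed by more than 1000 bp. In the 19 wider regions it was 274 bp, and 4 edges differed by more than 1000 bp. Agreement was closer on 2L, where both edges lay within 100 bp in 12 of 27 regions and the median Jaccard index of the 2 replicate calls within a region was 0.942. On 3L both edges lay within 100 bp in 5 of 26 regions and the median index was 0.873. This difference between the arms rests on few regions of the same libraries and was not tested. Over both arms the index ran from 0.333 to 0.989, and none of the 53 regions was one in which the replicates shared no base.

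The 5 highest-scoring replicated regions of distal 2L were all of the 2 kb or the 4 kb size. The first lay at 2L:8477068-8479244, scored 1.58 in the combined list, 1.11 in replicate 1 and 1.94 in replicate 2, and its replicate edges differed by 30 and 72 bp. The second, 2L:5000380-5002600, had a combined score of 1.50, against 1.06 in replicate 1 and 1.82 in replicate 2. In both, the score of replicate 2 was well above that of replicate 1. The third, at 2L:16513729-16517932, scored 1.45, with 1.33 and 1.55 in replicates 1 and 2. The fourth, at 2L:12519338-12521535, scored 1.37, with 1.08 and 1.56. The fifth, at 2L:12559542-12563655, also scored 1.37, with 1.14 and 1.57. It began only 38.0 kb beyond the end of the fourth, with replicate starts 5 bp apart and replicate ends 160 bp apart.

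The 5 of distal 3L were more mixed. The first, at 3L:18080259-18082393, scored 1.54 in the combined list, 1.18 in replicate 1 and 1.79 in replicate 2, and was 2135 bp wide with replicate edges 13 and 46 bp apart. The next 2 were neighbours separated by 210 bp. The one at 3L:5455513-5459901 had a combined score of 1.52, with 1.46 for replicate 1 and 1.75 for replicate 2. The one at 3L:5452166-5455302 had 1.40, with 2.00 for replicate 1 and 1.43 for replicate 2. Replicate 1 covered less of this pair than replicate 2, with 2200 against 4052 bp in the first and 1534 against 2468 bp in the other. Its score of 2.00 was the highest that either replicate gave to a distal region of these arms.

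**Figure D3:**
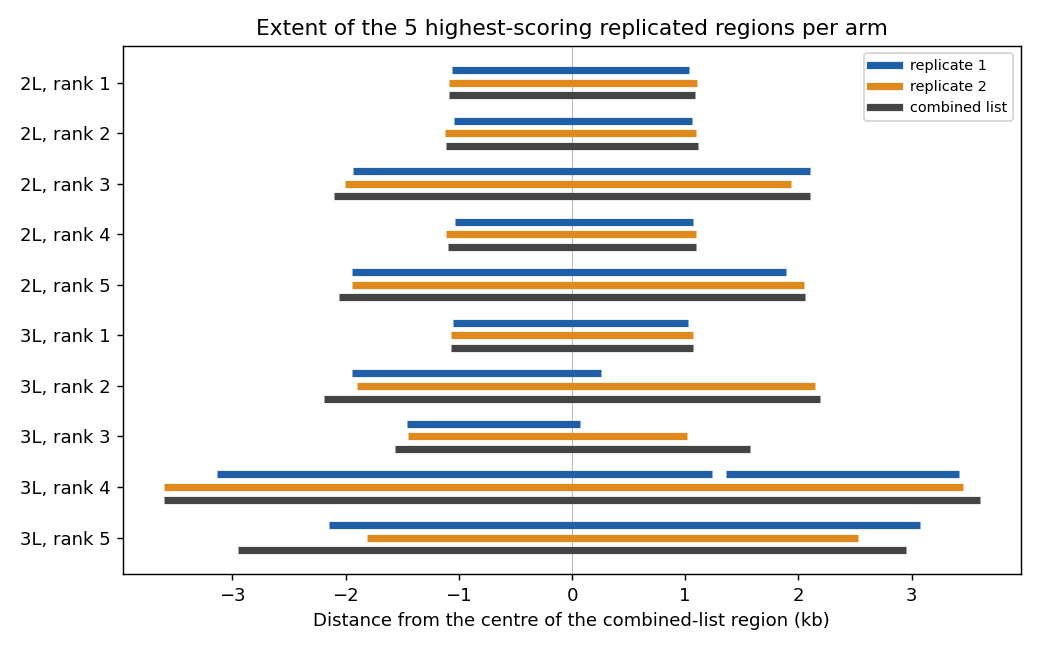
Extent of the replicate 1, replicate 2 and combined-list calls (kb from the centre of the combined-list region, horizontal axis) for the 5 highest-scoring replicated regions of distal 2L and of distal 3L, ranked by combined score. On 2L all calls of a region nearly coincide, while on 3L ranks 2 and 3 replicate 1 ends short of replicate 2 (by 1894 and 948 bp) and in rank 4 replicate 1 holds 2 separate calls.

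The widest distal regions reached 7.56 kb, well below the 43968 bp of the widest replicated region in the proximal 3 Mb. On 2L they lay at 2L:3251876-3259434 (7559 bp) and 2L:11540956-11548367 (7412 bp). The first scored 1.23 in replicate 1 and 1.24 in replicate 2, and the other 1.28 and 1.23, so that in both wide regions the replicates differed little in score. The replicate edges of the region at 2L:11540956-11548367 were 69 and 11 bp apart, and with a Jaccard index of 0.989 it was the most closely matched distal region. The next widest on 2L, 2L:9996616-10001930 (5315 bp), scored only 0.53 and was held by 1 call of 1520 bp in replicate 1 and 2 calls of 4566 bp in all in replicate 2. It had the lowest index of the replicated regions, 0.333. The widest on 3L was 3L:20470462-20477665 (7204 bp), with a combined score of 1.13 and replicate scores of 1.19 and 1.21 (replicates 1 and 2), and was split into 2 calls in replicate 1.

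A group of regions lay close to the telomeric end of 3L. The first distal region of 3L, 3L:51113-57008, was 5896 bp wide and had a score of 0.88 (1.03 in replicate 1, 0.82 in replicate 2). It was the second widest on distal 3L and among its 5 highest-scoring replicated regions. With it, 6 members formed a run between 51113 and 73008, each within 10 kb of the next. The run spanned 21.9 kb, and 15.5 kb of that span was in regions. Both replicates overlapped 2 of the 6, including 3L:65782-69936, which scored 0.81 in replicate 1 and 0.80 in replicate 2. Replicate 2 alone overlapped 2 more, 3L:61090-62906 and 3L:62919-64385. These lay 0.012 kb apart and shared a single replicate 2 call, so they are not separately supported. No other run of distal regions on either arm held more than 4 members. The first 100 kb of 2L held 1 member, 2L:21927-23019, 1093 bp wide and overlapped by neither replicate. The treatment of reads that fit several places is not stated, and the part of repeated sequence in these calls was not tested.

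Most other distal regions had no close neighbour: 158 of the 229 members on 2L and 175 of the 260 on 3L had no other member within 10 kb, and most of the rest lay in runs of 2 (28 runs on 2L and 27 on 3L). The median gap to the next member was 57.2 kb on 2L and 52.9 kb on 3L, against 2.93 kb in proximal 2L and 2.15 kb in proximal 3L. Of 487 gaps between neighbouring members, 87 were of 10 kb or less, or 17.9% (interval 14.7% to 21.5%), against 80.9% in the proximal 3 Mb. The same share was 24.4% in distal X and 13.8% in distal 3R. Within the replicate lists it was 8.42% in replicate 1 and 9.18% in replicate 2. The widest gaps ran for 659 kb on 2L between 7759918 and 8419359 and for 521 kb on 3L between 15568123 and 16089297, and neither replicate had a region inside them.

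Where both replicates called a distal region, their scores were related. Over 54 matched pairs, in which each replicate 1 region was paired with the replicate 2 region sharing most bases, Spearman's coefficient was 0.655 and Pearson's r was 0.675. Spearman's coefficient was 0.693 on 2L (27 pairs) and 0.400 on 3L (27 pairs), against 0.816 over 241 pairs in the proximal 3 Mb. With a reciprocal overlap of 50% it was 0.696 on 2L and 0.359 on 3L. With one-to-one matches it was 0.693 and 0.360. The relation on 3L alone was not tested. These are descriptions across regions, which share the same 2 libraries and are not independent replicates. Replicate 2 scored higher than replicate 1 in 37 of the 54 distal pairs, or 68.5% (interval 55.3% to 79.3%). In distal X it did so in 15 of 31 pairs, or 48.4% (32.0% to 65.2%), and in distal 3R in 13 of 23, or 56.5% (36.8% to 74.4%). In the proximal 3 Mb it did so in 111 of 241 pairs, or 46.1% (39.9% to 52.4%), and over all pairs of the series in 42.9% of 2237. By arm it was 21 of 27 on distal 2L and 16 of 27 on distal 3L. Among the 53 replicated members, replicate 2 was higher in 26 of the 34 under 2400 bp and in 10 of the 19 wider ones. Whether the lists were scaled alike is not stated, and the part of scaling in this was not tested.

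**Figure D4:**
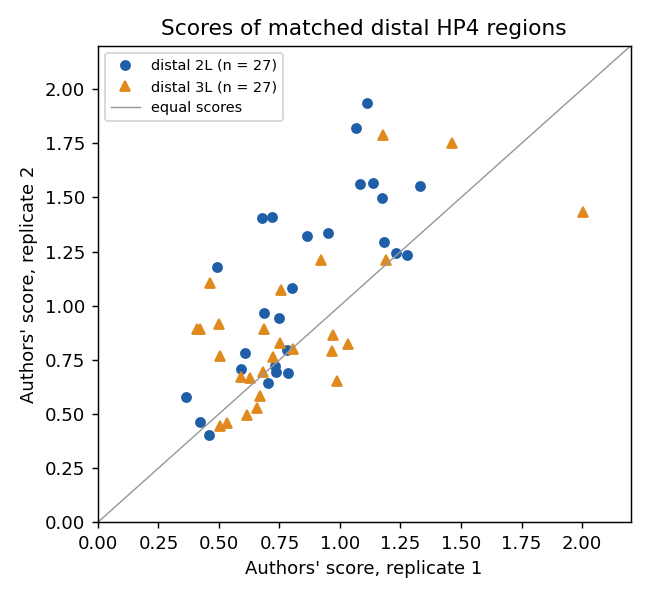
Authors' scores of 54 matched distal regions in replicate 1 (horizontal axis) and replicate 2 (vertical axis), with the line of equal scores. Points lie above the line in 21 of 27 pairs on 2L and in 16 of 27 on 3L, and the lone point far to the right is the 3L region with 2.00 in replicate 1.

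Along the arms the distal regions were spread unevenly in the replicates. Of 41 whole 1 Mb steps, 31 held at least 1 member overlapped by both replicates, and mean replicate coverage had a median of 0.443%. In the replicate lists the densest step of 2L was 3 to 4 Mb from the telomeric end, with 1.31% covered in replicate 1 and 1.43% in replicate 2. It held 14 members between 3003611 and 3878554, 4 of them overlapped by both replicates and 1 of these the 7559 bp region. In the combined list this step was 2.58% covered and the step from 11 to 12 Mb was denser, at 2.79%. By mean replicate coverage the densest step of 3L was the first, at 1.18% ± 0.216, with 1.03% in replicate 1 and 1.33% in replicate 2. It was also the densest in the combined list (3.26%) and held the telomeric group described above. The step of 3L from 20 to 21 Mb came next on that arm by the mean, at 1.07% in replicate 1 and 0.978% in replicate 2, and held the 7204 bp region. In replicate 1 alone it was denser than the first step, so the replicates did not give the same order.

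The emptiest steps lay on 2L. From 14 to 15 Mb and from 19 to 20 Mb neither replicate had a region, although the combined list had 12 and 10 there. When each distal arm was divided into 3 equal lengths, the part of 2L nearest the centromere was the least covered, at 0.218% ± 0.0138, against 0.629% ± 0.0290 in the telomeric part and 0.685% ± 0.0307 in the middle. Of the 68 members in that part of 2L, 4 were overlapped by both replicates, against 12 of 85 and 11 of 76. On 3L the middle was the least covered, at 0.298% ± 0.0287, against 0.566% ± 0.136 in the telomeric part and 0.525% ± 0.0859 nearest the centromere. Coverage in 1 Mb steps correlated between the replicates with a Spearman coefficient of 0.739 over the 41 steps, a description over positions within the same libraries. The 2 arms thus did not show a common rise towards the centromere within the distal length.

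**Figure D5:**
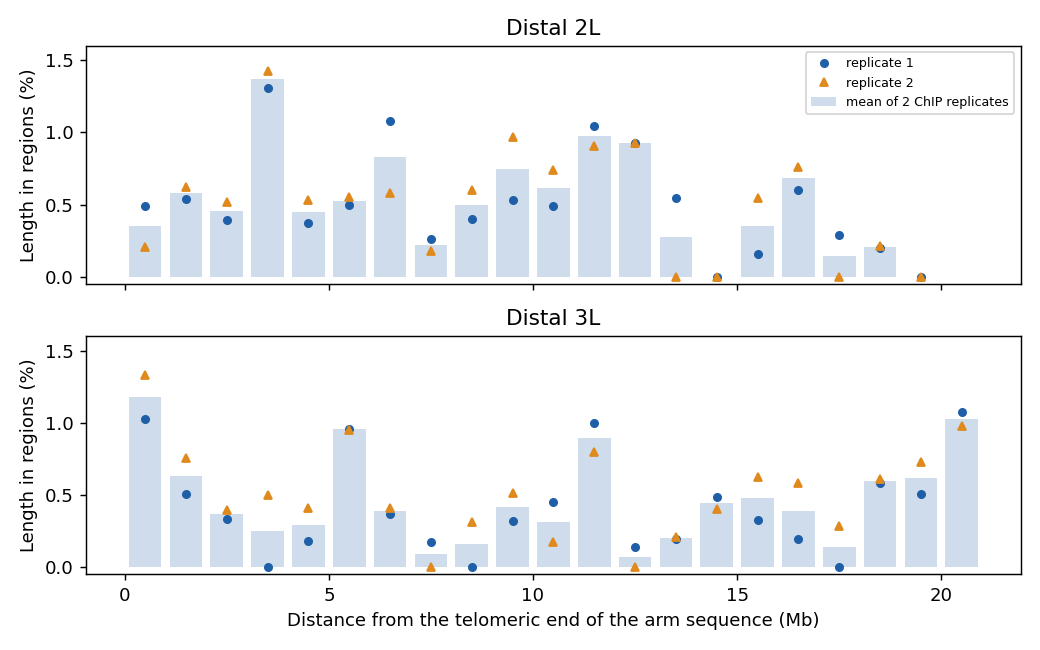
Share of each 1 Mb step in HP4 regions (%, vertical axis) against the distance from the telomeric end of the arm sequence (Mb, horizontal axis) for distal 2L (top) and distal 3L (bottom). Bars are means of the 2 ChIP replicates and markers the single replicates, with peaks of 1.37% on 2L and 1.18% on 3L.

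At the limit of the distal part the arms were sparse. The last member inside it was 39.4 kb short of the limit on 2L, at 2L:19971538-19972790 with a score of 0.47, and 70.4 kb short on 3L, at 3L:21472512-21473726 with a score of 0.44. The first region beyond it was 2L:20084459-20086905 (score 0.53) on 2L and 3L:21663292-21664292 (score 0.53) on 3L. Of these 4 regions, replicate 1 overlapped the one on 2L beyond the limit and no other was overlapped by a replicate.

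Some high scores were found in a single list. In replicate 1 the highest-scoring distal regions without a partner were 2L:6152065-6153399 (0.96) and 3L:2129865-2131320 (1.05). In replicate 2 they were 2L:15826742-15828742 (1.08) and 3L:9969912-9971441 (1.36). All 4 were overlapped by the combined list. In the combined list the highest distal scores belonged to regions that neither replicate overlapped, with 3.16 at 3L:18041551-18042551 and 2.36 at 3L:7909986-7910986, both 1001 bp wide, the smallest width in that list. On 2L the highest such score was 1.80, at 2L:4668023-4669132, and the next was 0.74. Regions of this kind have no replicate value behind them here.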

How the data were processed

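Oregon-R embryos of 14 to 16 h were fixed with formaldehyde before chromatin immunoprecipitation, per the labels' protocols. The submitters' processing notes name Bowtie 0.12.7 as aligner. Details not given in the sources used here are the region caller, its threshold and window, the handling of multiply mapping reads and the combining of replicates. The authors deposited region lists with 1 score per region, in FlyBase release 5 coordinates per the file headers. The gene table at hand is of release 6, so regions have no gene assignment and no sequence is shown.

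Groups came from the sample titles and arm lengths from the file headers. Tools were Python 3.11.15, numpy 2.4.6, pandas 2.3.3, scipy 1.17.1 and matplotlib 3.10.9. Coverage divides the bases of regions with a distal midpoint by the distal length. Overlap means at least 1 shared bp. Wilson 95% intervals cover counting error only. The overlap code was tested on a simulated list of 800 regions and found 400 of 400 planted shared regions. By rule the text names, per arm, the 5 highest-scoring members overlapped by both replicates, the 3 widest, the first, those beside the distal limit, the densest 1 Mb, the widest gap and the best region of each replicate without a partner. The telomeric group on 3L, the high-scoring members without replicate overlap, the most and least closely matched regions, the widest call of each replicate, the second densest step of 3L, the combined-list step of 2L from 11 to 12 Mb and the empty steps of 2L were named after their values were seen. The members and rules were chosen with earlier results of these data known. Alternatives were other distal limits, overlaps, distances and score limits, merging of close regions, the combined list, and each replicate left out.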

Additional observations from a re-analysis of the deposited data

How the results depend on the processing

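No paired analysis was possible because the results come from no test; ratios between parts were taken within each replicate. In the combined list distal coverage was 1.70% on 2L and 1.77% on 3L, their ratio 0.963, and the distal to proximal ratios 0.0769 and 0.0458. In the upper 50% of each list by score these values were 0.140%, 0.0487%, 3.03, 0.0170 and 0.00355. Regions per Mb in the combined list fell there to 0.949 on 2L and 0.743 on 3L, against 11.4 and 12.1. Of the members there, 65.7% were overlapped by both replicates, and the matching share of the whole combined list is not given here. With the limit 2 Mb from the proximal end 2L coverage was 0.674%, the 2L to 3L ratio 1.49 and the distal to proximal ratios 0.0310 and 0.0105. With 5 Mb 2L coverage was 0.556% and the distal to proximal ratios 0.0583 and 0.0255. The share overlapped by both was 26.4% among members of at least 1301 bp. Without replicate 1 or 2 the share overlapped by the remaining replicate was 17.4% to 19.6%, and the share of gaps up to 10 kb in its own list 8.42% to 9.18%. In the combined list 13.6% of gaps were up to 5 kb and 27.1% up to 20 kb. In the combined list the median width was 1204 bp and the median score 0.530. The 1 Mb steps densest by mean replicate coverage were 2.58% (2L) and 3.26% (3L) covered in that list. Of 60 alternative values for the main results 29 stayed within the replicate SD, the counting interval or 1.5 times the count. Where the main value was the mean of the replicates, each single replicate lies within their SD of it by construction. Those values could not have moved, so the count of 29 is no measure of robustness. The causes of the changes were not tested, except that longer distances and higher score limits change counts by construction. Alternatives for the width minimum, the medians, the 1 Mb steps and the named regions were chosen after seeing the data. Read depth, unknown here, limits all calls.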

Other observations

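Equal scores recurred among the distal members. Of the 489 members of the combined list, 111 had a score that another member also had (tolerance 1e-09). They were 101 of the 361 members overlapped by neither replicate, or 28.0%, 9 of the 75 overlapped by 1 replicate, or 12.0%, and 1 of the 53 overlapped by both, or 1.89%. The combined score lay between the replicate scores in 33 of the 53 replicated members, below both in 19 and above both in 1. The same shares over the whole combined list are not given here, so neither count can be read as particular to the distal members.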
